A study of Arabidopsis thaliana with 48 samples.

Results

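The guard cell response of the agb1 gpa1 double mutant of Arabidopsis thaliana to abscisic acid (ABA) was measured on 6 of the 48 arrays of the study. They were chosen by their titles alone: 3 arrays of guard cells treated with 50 µM ABA for 3 h and 3 arrays of guard cells treated with ethanol (EtOH), the solvent, for 3 h. All plants were of the Columbia (Col-0) ecotype, and these carried the agb1-2 and gpa1-4 alleles together. The other guard cell arrays held agb1-2, gpa1-4 and wild-type (WT) plants under the same treatments, and whole leaves of all 4 genotypes made up the rest, with 3 arrays in each of the 16 groups. For a guard cell array 300 leaves were taken from 60 to 70 plants that were 5 weeks old, and for a leaf array 10 leaves from 3 to 4 plants of the same growth run, under 8 h of light at 20 °C and 120 µmol m-2 s-1 and 16 h of dark at 18 °C. Per the labels the replicates were independent and biological, and each array holds RNA pooled over many plants. The labels differ on whether the leaves were treated before the guard cells were isolated or the isolated guard cells were treated, so the step at which ABA was given is not settled here.

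Guard cells flank the stomatal pore and set its width. ABA, made by plants under water shortage, closes stomata and keeps them from opening, and it also reprograms transcription through ABA-activated kinases and transcription factors that act on genes for protective proteins, transporters and metabolic enzymes. GPA1 is the canonical G protein alpha subunit of Arabidopsis and AGB1 its beta subunit. Mutants in either are known for altered guard cell sensitivity to ABA, and the double mutant lacks both partners of the heterotrimer. The comparison asks which transcripts still change with ABA in guard cells without this pair.

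Values are RMA log2 signals per probe set, so a difference of 1 is a 2-fold change. Array values are given in the order of replicates 1 to 3, and a response is the mean under ABA minus the mean under EtOH. It was tested with limma over the 24 guard cell arrays. A probe set was called at a Benjamini-Hochberg adjusted p under 0.05 over 22746 probe sets, and intervals are 95% intervals from that fit. With 3 samples against 3, an exact permutation test of a single gene cannot go below 0.1, so no such test was made. The deposited values carry no detection call, so whether values near 3.5 lie above background is unknown. Array medians lay between 5.094 and 5.169 under ABA and between 5.165 and 5.249 under EtOH, and the median standard deviation of a probe set within a group was 0.204 under ABA and 0.145 under EtOH. Pairs of arrays correlated at 0.980 to 0.994 within a treatment and at 0.942 to 0.963 between treatments. Of the tested probe sets 13513 are tied to 1 gene, 503 to several and 8730 to none here, which leaves 13356 named genes. No probe set named here stands for GPA1 or AGB1, so the mutants could not be checked at the targeted genes. Many genes below have a locus code and no name in the tables used, and no role is given to those.

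The guard cell label was set against marker genes. FMA, the transcription factor FAMA that drives guard cell differentiation, was at 10.81, 10.67 and 10.63 in EtOH-treated guard cells of agb1 gpa1, against 4.83, 5.30 and 5.37 in EtOH-treated leaves of agb1 gpa1. CHX20, a guard cell cation/proton exchanger, was at 11.46, 11.10 and 11.47 in these guard cells and at 7.43, 7.38 and 7.4 in leaves. Both markers were higher in every guard cell array. PSAN, a photosystem I subunit and mesophyll marker, stood lower in guard cells without being absent. It was at 9.36, 9.47 and 9.61 in guard cells and at 12.30, 12.60 and 13.03 in leaves. The levels of the other mesophyll genes are not set against leaves here. SWEET11, a phloem sucrose exporter, was at 6.53, 4.68 and 3.92 in EtOH-treated guard cells, against 10.74, 11.36 and 11.09 in leaves. The highest of the 3 guard cell values belonged to replicate 1. In samples of this kind, fewer cells of a type and less RNA per cell cannot be told apart.

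ABA changed the level of 3695 probe sets in agb1 gpa1 guard cells, 16.2% of those tested. Of these, 1651 rose (7.26%) and 2044 fell (8.99%). With each array centred on its median, which moved the median of all probe sets to 0.07, the larger count was that of the rises, with 1872 rises and 1620 falls. Of all probe sets 7.39% were called with a change of at least 2-fold, 908 of them rises and 774 falls, and those that reached 8-fold were 109 rises and 35 falls. The median response over all probe sets was 0.0061. The groups of 3 did not overlap for 7751 probe sets, 34.1% of those tested. Of the 13356 named genes 870 rose and 1017 fell. Replicate numbers paired the guard cell samples, and with the pair as a block the calls came to 5513, of which 2247 were higher and 3266 lower.

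AT3G02480 had the strongest rise of the named genes. It was at 11.99, 11.69 and 11.94 under ABA, against 4.27, 4.06 and 4.36 under EtOH, a response of 7.64 (interval 6.79 to 8.5, limma adjusted p = 7.98e-11). The 3 arrays of each treatment lay close together and far apart from the other treatment. AT3G17520 followed with 10.50, 10 and 11.51 under ABA, against 3.50, 3.51 and 3.81 under EtOH (response 7.06, 5.87 to 8.25, limma adjusted p = 2.49e-08). Both are on the list of ABA-induced genes used here and have no name in the tables used. AT5G45690 was at 9.45, 9.04 and 11.11 under ABA and at 3.58, 3.54 and 3.81 under EtOH, with replicate 3 the highest under ABA. Its response was 6.22. AT1G69480 was the most even of the strongest genes, with 9.81, 9.91 and 9.91 under ABA, against 4.22, 3.80 and 4.2 under EtOH, and its response of 5.80 had an interval of 5.34 to 6.27.

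LEA18 and AtLEA4-1 stood among the 12 genes with the highest responses. Both encode late embryogenesis abundant (LEA) proteins, hydrophilic proteins that protect cells during drying. LEA18 was at 10.03, 9.27 and 10.50 under ABA, against 4.23, 4.63 and 4.29 under EtOH (response 5.55, 4.51 to 6.59, limma adjusted p = 1.03e-07). AtLEA4-1 was at 8.62, 8.57 and 9.71 under ABA and at 3.57, 3.51 and 3.74 under EtOH (response 5.36, limma adjusted p = 4.33e-08). The treatments did not overlap for either gene, and their EtOH values lay near the low end of the scale. Others of the 12 started from a higher level. AT1G49450 was at 11.11, 11.03 and 11.89 under ABA, against 6.84, 5.78 and 6.39 under EtOH, and AT5G05220 at 12.27, 11.94 and 11.81 under ABA, against 7.38, 6.74 and 7.42 under EtOH. Their responses were 5.01 and 4.83. ZW9 was at 10.39, 10.18 and 10.84 under ABA and at 5.70, 5.37 and 6.02 under EtOH (response 4.78). AT2G47780, AT1G23070 and AT3G15670 completed the 12 with responses of 5.55, 4.73 and 4.71. The last of these spread most, with 8.58, 7.21 and 9.10 under ABA, against 3.60, 3.40 and 3.76 under EtOH.

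**Figure D1:**
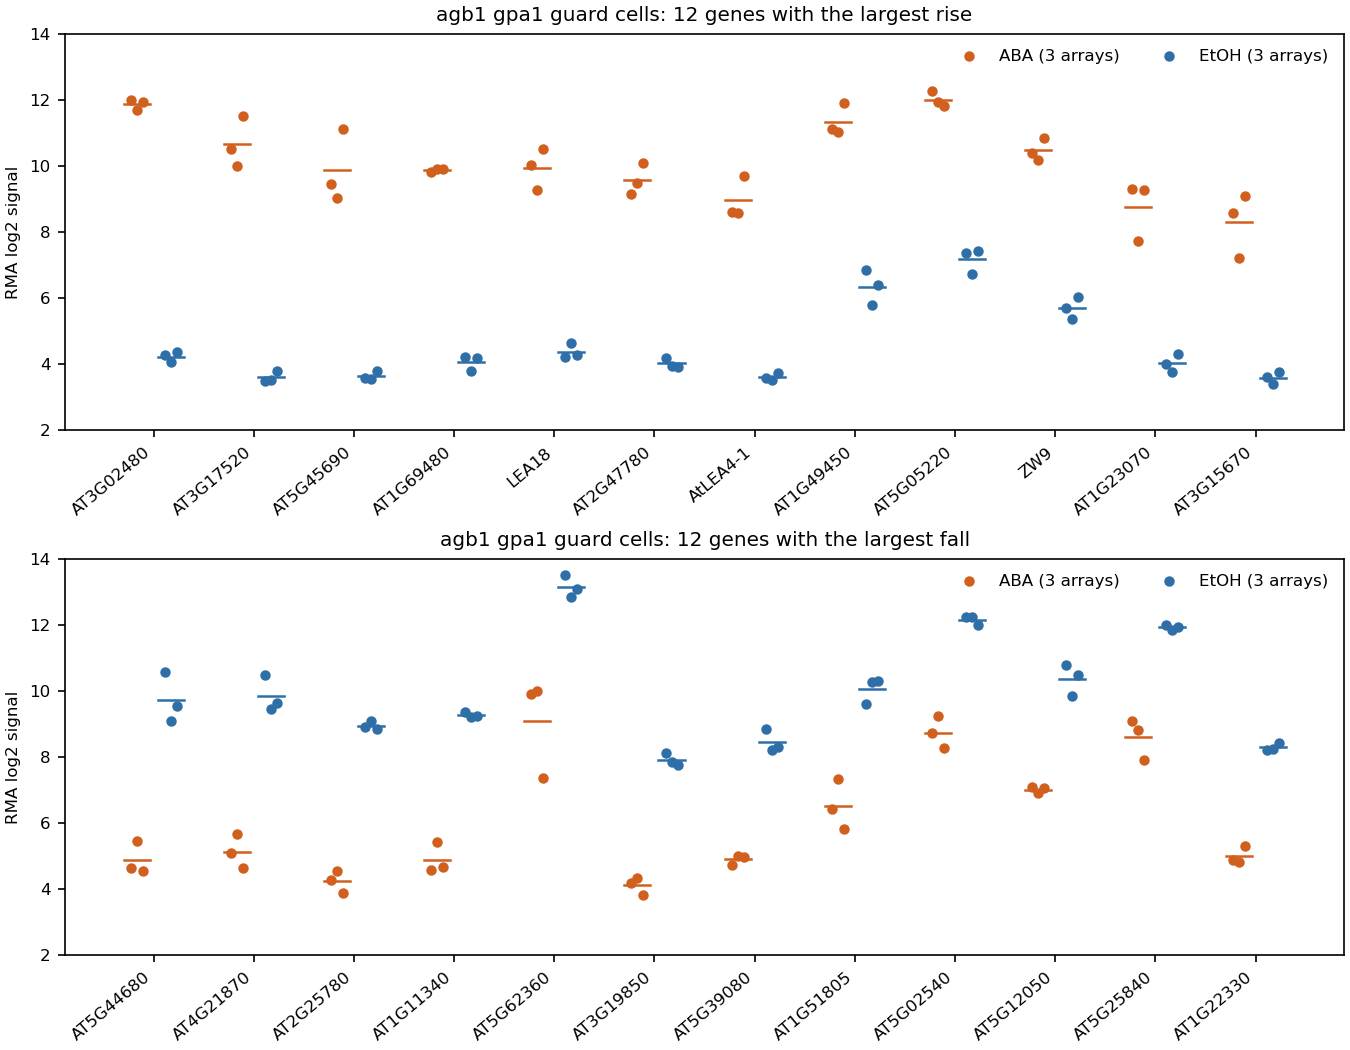
RMA log2 signal on each of the 6 arrays (points, ABA left of EtOH) with the mean of each treatment (line), for the 12 named genes with the largest rise (upper panel) and the 12 with the largest fall (lower panel) in agb1 gpa1 guard cells. The treatments do not overlap for any of the 24 genes, which is part of how they were chosen.

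The genes with the largest falls are named here by locus code only. AT5G44680 was at 4.63, 5.47 and 4.56 under ABA, against 10.57, 9.09 and 9.54 under EtOH (response -4.84, -5.79 to -3.90, limma adjusted p = 1.79e-07). AT4G21870, which the heat shock list holds, was at 5.09, 5.68 and 4.63 under ABA and at 10.49, 9.44 and 9.65 under EtOH (response -4.73, limma adjusted p = 3.43e-08). AT2G25780 was at 4.29, 4.55 and 3.88 under ABA, against 8.91, 9.10 and 8.85 under EtOH (response -4.72). The ABA values of these 3 genes lay in the low part of the scale, while their EtOH values did not. AT1G11340 was at 4.58, 5.43 and 4.68 under ABA and at 9.37, 9.20 and 9.23 under EtOH (response -4.37). AT5G62360 varied more, with 9.91, 9.99 and 7.38 under ABA, against 13.52, 12.84 and 13.07 under EtOH, and its response of -4.05 had an interval of -5.70 to -2.4. The low ABA value belonged to replicate 3. The remaining 7 of the 12 had responses between -3.79 (AT3G19850) and -3.28 (AT1G22330). All 24 genes with the largest responses kept their call and direction under all 312 alternative values, with a highest limma adjusted p of 0.0105. They were chosen on the same arrays as the largest called responses without overlap, so this outcome was likely from the start.

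Of 31 genes written down as ABA-induced, 8 have a named probe set. Of these 8, 7 rose, none fell and 1 was not called. Their median response was 3.68, against 0.0061 over all probe sets. The list was chosen with earlier results of these data known, so these counts are no independent evidence of a response. In addition to AT3G02480, AT3G17520 and LEA18, the list held LEA4-5, a further LEA protein, at 11.72, 11.16 and 11.54 under ABA, against 7.47, 6.90 and 7.57 under EtOH (response 4.16, limma adjusted p = 4.32e-08). COR15A, which protects chloroplast membranes in the cold, was at 13.07, 13.06 and 12.61 under ABA and at 9.64, 9.53 and 9.96 under EtOH (response 3.20, 1.86 to 4.55, limma adjusted p = 0.00138). Neither gene had overlapping treatments. Dehydrin LTI30 was at 13.51, 13.43 and 13.10 under ABA, against 12.07, 11.46 and 11.95 under EtOH (response 1.52, limma adjusted p = 0.0147). Without ABA replicate 1 or EtOH replicate 2 its limma adjusted p was 0.0553 or 0.0742. Dehydrin COR47 was at 13.76, 13.87 and 13.80 under ABA and at 12.92, 12.75 and 12.89 under EtOH (response 0.96, limma adjusted p = 0.0103). COR15B, a close relative of COR15A whose probes may read both, was at 11.49, 11.28 and 9.82 under ABA, against 8.73, 8.73 and 9.67 under EtOH. Its treatments did not overlap, replicate 3 differed by far less than the other 2, and its response of 1.82 (0.13 to 3.51) was not called, with a limma adjusted p of 0.144. With the replicate pair as a block it was 0.0126.

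**Figure D2:**
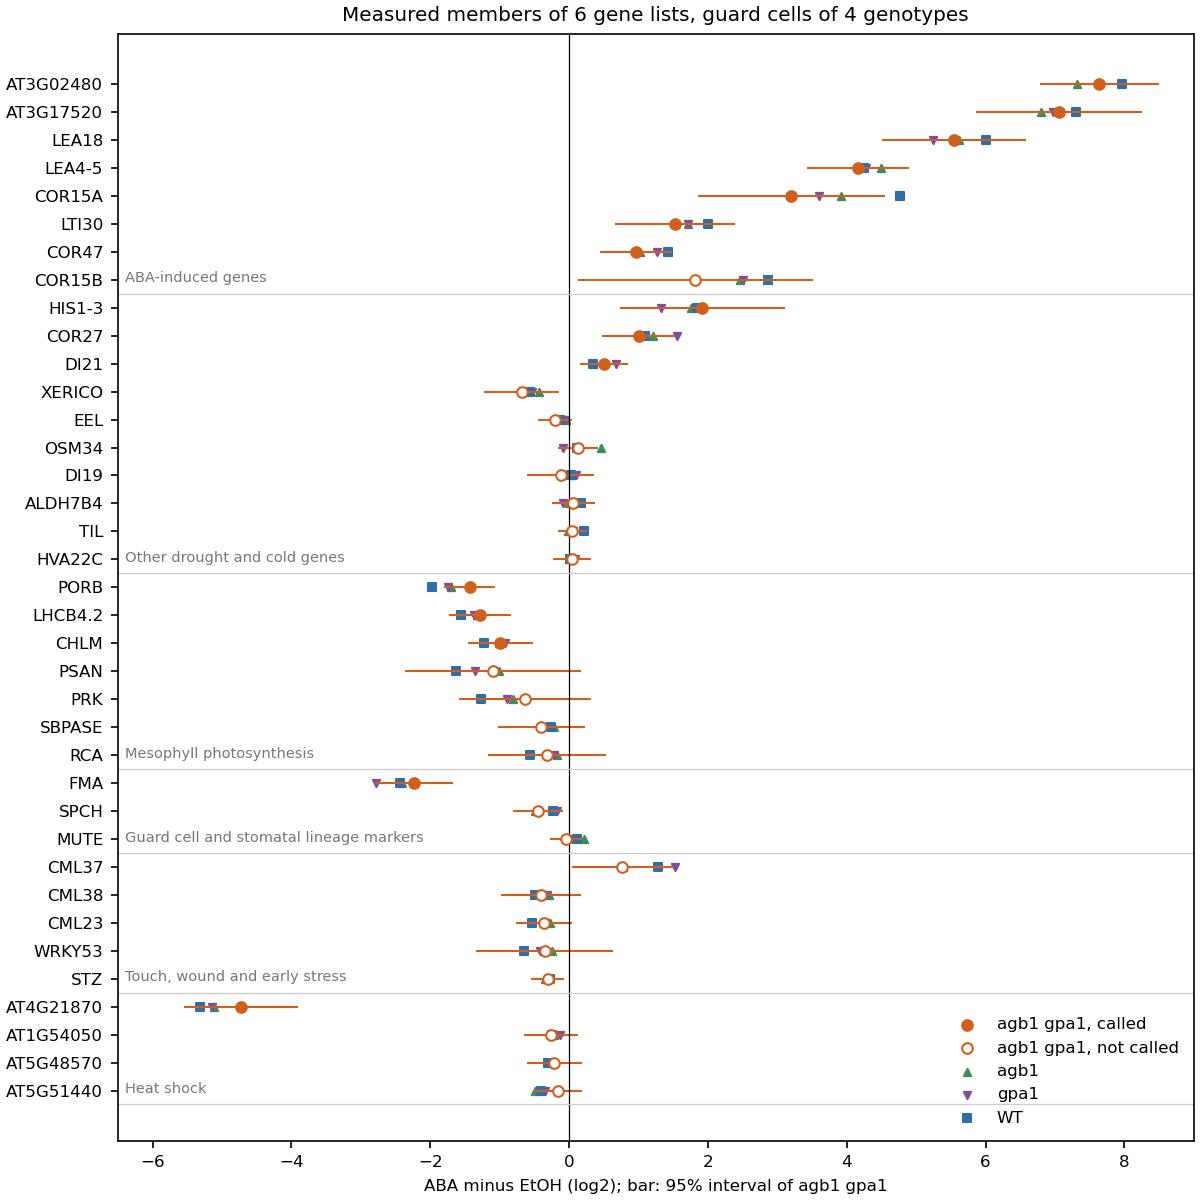
ABA response (log2, ABA minus EtOH) of the measured members of 6 gene lists in guard cells of agb1 gpa1 (circles, filled where called, with 95% interval), agb1 (triangles up), gpa1 (triangles down) and WT (squares). Of the ABA-induced genes 7 of 8 are called higher in agb1 gpa1, and of the mesophyll photosynthesis genes 3 of 7 are called lower. The lists were chosen with earlier results of these data known.

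Among 10 other genes of drought and cold responses 3 rose and none fell, with a median response of 0.06. HIS1-3, a drought-linked linker histone, was at 11.40, 10.89 and 10.38 under ABA, against 8.84, 9.07 and 9.0 under EtOH (response 1.92, limma adjusted p = 0.0251). It lost its call on leaving out any array except ABA replicate 3, at a limma adjusted p of up to 0.109. COR27 had a response of 1.01, which was not called without ABA replicate 2 (limma adjusted p = 0.0517). DI21 had a response of 0.51 at a limma adjusted p of 0.0411, and it was not called when any single array of the 6 was left out. XERICO, which promotes ABA accumulation, was at 6.68, 7.11 and 7.73 under ABA and at 7.93, 7.73 and 7.91 under EtOH. Its response of -0.68 was not called (limma adjusted p = 0.085), and with the replicate pair as a block the p was 0.0167. The other 6 had responses between -0.20 and 0.13.

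Of 16 genes of ABA synthesis, breakdown and transport, UGT71B6 alone has a named probe set. It encodes a glucosyltransferase that conjugates ABA, and it was at 6.86, 6.58 and 6.86 under ABA, against 5.77, 5.0 and 5.28 under EtOH (response 1.42, 0.86 to 1.98, limma adjusted p = 0.000812). The lists of ABA receptors, clade A PP2C phosphatases, SnRK2 kinases and ABA transcription factors have no named probe set and were not analysed here.

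CHX20 and FMA, both markers of guard cells, fell with ABA. CHX20, which takes part in osmotic adjustment of guard cells and was 1 of 26 listed ion transport and signalling genes, was at 10.10, 9.87 and 10 under ABA, against 11.46, 11.10 and 11.47 under EtOH (response -1.35, -1.93 to -0.78, limma adjusted p = 0.00151). FMA was at 8.38, 8.54 and 8.47 under ABA and at 10.81, 10.67 and 10.63 under EtOH (response -2.23, -2.80 to -1.67, limma adjusted p = 5.15e-06). The treatments lay apart for both, and the 3 arrays of a treatment lay close together. Of 13 listed markers of the stomatal lineage 3 were measured, and FMA was the only one called. SPCH, which acts earlier in the lineage, was at 3.77, 3.98 and 3.64 under ABA, against 4.2, 3.90 and 4.61 under EtOH, and its response of -0.44 was not called (limma adjusted p = 0.0979), though it was after quantile normalization. MUTE, which acts between the other two, was at 3.32, 3.16 and 3.09 under ABA and at 3.17, 3.24 and 3.3 under EtOH. AT4G14480, annotated as BLUE LIGHT SIGNALING1, a kinase of blue light-driven stomatal opening, was at 6.53, 5.63 and 5.84 under ABA, against 8.77, 8.5 and 8.81 under EtOH (response -2.69, -3.25 to -2.14, limma adjusted p = 3.67e-07). It was outside the lists. It belongs to the 142 genes with a symbol or a name in words whose treatments did not overlap and whose called change reached 2-fold, 67 of them higher and 75 lower. This set was drawn up after the values were seen, from 1632 genes with such a name, and the genes below that are not credited to a list or family come from it. Of all probe sets 7.39% were called with a change of at least 2-fold, overlap not considered.

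PRN, a pirin that binds the G alpha subunit in Arabidopsis, was the only measured gene of 17 listed G protein subunits and partners. It was at 9.23, 9.09 and 9.34 under ABA, against 6.07, 6.28 and 6.70 under EtOH (response 2.88, 2.33 to 3.42, limma adjusted p = 1.26e-07). It rose in agb1, gpa1 and WT guard cells by 2.48, 2.75 and 2.86. None of its differences of response between agb1 gpa1 and these genotypes was called.

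Cell wall genes moved in both directions. Expansins loosen the wall, and of 19 measured family members 5 rose (26.3%, against 7.26% of all probe sets) and none fell, with a median of 0.18 against 0.0061 over all probe sets. EXPA4 was at 10.02, 8.78 and 10.45 under ABA, against 6.20, 5.47 and 5.43 under EtOH (response 4.05, 2.87 to 5.22, limma adjusted p = 2.94e-05). EXLA2 was at 11.23, 11.74 and 11.61 under ABA and at 7.53, 7.90 and 8.2 under EtOH (response 3.65, limma adjusted p = 2.49e-08). No ABA array of these genes came near an EtOH array. EXLA1 and EXPA16 had responses of 1.46 and 1.03, while EXLB1, at 0.41, lost its call on leaving out any single array of the 6. Probes of close family members may share signal. XTH16, an enzyme that cuts and rejoins xyloglucan, was at 5.72, 6.93 and 6.92 under ABA, against 9.42, 8.69 and 9.01 under EtOH (response -2.52, limma adjusted p = 9.71e-05), and was the only called gene of 10 measured xyloglucan enzymes, while the block gave 1 rise and 2 falls. CSLC5 and CSLA03, cellulose synthase-like enzymes that make backbones of wall polysaccharides, fell by 1.71 and by 1.99 on the log2 scale (limma adjusted p = 0.00118 and 6.72e-05). Of 23 trichome birefringence-like genes, whose proteins acetylate wall polymers, 1 rose (TBL37, response 1.49) and 4 fell, TBL45 the most (response -1.57), so 21.7% were called, against 16.2% of all probe sets. The other 3 falls, of TBL18, TBL28 and TBL35, were each lost on leaving out some single arrays. Of 4 pectin methylesterases 0 were called by limma, and 1 had an unadjusted p under 0.05.

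Of 7 measured genes of 25 on the mesophyll photosynthesis list 3 fell and none rose, with a median of -0.99. PORB, which makes chlorophyllide in the light, was at 6.43, 6.14 and 6.24 under ABA, against 7.62, 7.78 and 7.72 under EtOH (response -1.43, limma adjusted p = 5.76e-06). LHCB4.2, a photosystem II antenna protein, was at 9.51, 10.03 and 9.97 under ABA and at 10.98, 11.13 and 11.25 under EtOH (response -1.28, limma adjusted p = 0.000236). CHLM, a methyltransferase of chlorophyll synthesis, had a response of -0.99. The treatments of the 3 genes did not overlap. The Calvin cycle genes PRK, SBPASE and RCA had responses of -0.63, -0.40 and -0.32 and were not called, and PSAN, at 8.75, 9.16 and 7.24 under ABA against 9.36, 9.47 and 9.61 under EtOH, was not called either. The list is also a list of mesophyll markers, and its mean level was 8.09 to 8.80 on the ABA arrays and 9.26 to 9.51 on the EtOH arrays. The part of mesophyll RNA in these falls was not tested. Over 13 nuclear photosynthesis genes, which include the 3 above, 5 fell and none rose, and LHCB4.1, a further antenna protein among the 5 (response -0.54), lost its call on leaving out any array except ABA replicate 2, at a limma adjusted p of up to 0.102. HEMB1, an early enzyme of tetrapyrrole synthesis, had a response of -1.13, and AT1G74470, annotated as geranylgeranyl reductase, which makes the chlorophyll tail, had a response of -1.16. NOL, an enzyme of chlorophyll b breakdown, had a response of 1.02.

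Several metabolic enzymes were among the named genes that changed. ALN, an allantoinase that frees nitrogen from purines, was at 7.66, 8.06 and 7.82 under ABA, against 9.73, 9.67 and 9.57 under EtOH (response -1.81, -2.09 to -1.53, limma adjusted p = 7.10e-09). FAC1, an AMP deaminase, was at 7.53, 7.55 and 7.43 under ABA and at 9.46, 9.22 and 9.15 under EtOH (response -1.78, limma adjusted p = 2.48e-06). ASPGB1, an asparaginase, was at 9.35, 10.02 and 10.01 under ABA, against 11.32, 11.43 and 11.08 under EtOH (response -1.48, limma adjusted p = 8.04e-05). No array of these genes crossed into the other treatment. APS3, which activates sulphate, and SIR, the sulphite reductase, had responses of -1.89 and -1.07. SIR was not called without ABA replicate 3, at a limma adjusted p of 0.0603. PPDK, which interconverts pyruvate and phosphoenolpyruvate, and cICDH, the cytosolic NADP isocitrate dehydrogenase, had responses of -1.5 and -1.06. GPDHC1, a cytosolic glycerol-3-phosphate dehydrogenase of redox balance, was at 11.20, 10.82 and 11.49 under ABA, against 9.04, 9.16 and 9.50 under EtOH (response 1.94, limma adjusted p = 9.29e-05). HCT, an enzyme of the monolignol pathway, was at 10.78, 11.02 and 11.06 under ABA and at 9.46, 9.27 and 9.09 under EtOH (response 1.68, limma adjusted p = 0.000128). CHIL, a chalcone isomerase-like protein of flavonoid synthesis, was at 7.0, 6.32 and 7.75 under ABA, against 4.81, 4.43 and 4.72 under EtOH (response 2.37, limma adjusted p = 7.25e-06). GFAT, which makes glucosamine phosphate, had a response of 1.73.

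Of 51 measured UDP-glycosyltransferases, which attach sugars to hormones and secondary metabolites, 6 rose and 3 fell, and with the pair as a block 10 rose and 5 fell. Without the block 11.8% rose and 5.88% fell, against 7.26% and 8.99% of all probe sets. UGT71B6 led the rises. UGT78D2, a flavonoid glucosyltransferase, was at 8.83, 8.90 and 8.52 under ABA, against 7.65, 7.52 and 7.54 under EtOH (response 1.18, limma adjusted p = 5.09e-06). UGT85A2 fell by 1.15 on the log2 scale. Glutathione transferase GSTU18 was the only 1 of 13 in its family to be called, with 10, 9.72 and 9.86 under ABA and 8.31, 8.67 and 8.55 under EtOH (response 1.35, limma adjusted p = 4.41e-07). Of 24 cytochrome P450 genes only CYP71B35 was called, with a response of 0.56, and the block added 2 that fell. Of 22 beta-glucosidases BGLU16 and BGLU42 fell, by 1.15 and by 1.01 on the log2 scale, and none rose. Of 29 serine carboxypeptidases 3 fell and none rose, scpl25 with a response of -1.21 being the largest. The shares that fell in both families, 9.09% and 10.3%, were near the 8.99% of all probe sets. The calls of the other 2, scpl26 and scpl42, were lost on leaving out some single arrays.

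Among transporters, MTP11, a manganese transporter of the secretory system, was at 11.32, 11.23 and 11.30 under ABA, against 7.69, 8.2 and 8.05 under EtOH (response 3.31, 2.97 to 3.64, limma adjusted p = 1.97e-11). The 3 ABA arrays lay closer together than the 3 EtOH arrays, and the treatments did not overlap. The tonoplast sugar carriers TMT2 and TMT1 went opposite ways. TMT2 was at 6.10, 5.78 and 5.50 under ABA, against 4.12, 4.07 and 4.72 under EtOH (response 1.49, limma adjusted p = 7.90e-05), and TMT1 at 4.83, 4.15 and 4.27 under ABA, against 6.28, 5.36 and 4.88 under EtOH (response -1.09, limma adjusted p = 0.0189). TMT1 was not called without ABA replicate 2 or 3 or EtOH replicate 1, at a limma adjusted p of up to 0.135. None of the other members of this group of 19 sugar carriers, SWEET11 among them with a response of -0.10, was called, and the block brought the group to 2 rises and 2 falls.

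PUB19, a U-box ubiquitin ligase that restrains ABA signalling, was at 12.85, 12.90 and 13.06 under ABA, against 10.12, 10.55 and 10.93 under EtOH (response 2.4, 1.97 to 2.84, limma adjusted p = 6.56e-08). PUB22 and PUB23, ligases that dampen drought and immune responses, were at 11.43, 11.57 and 11.16 and at 11.28, 11.45 and 11.16 under ABA, against 12.48, 12.13 and 12.15 and 12.56, 12.10 and 12.44 under EtOH. Their responses were -0.86 and -1.07. In all, 2 of 9 measured U-box ligases rose and 3 fell. Of these, PUB25 (response -1.14) lost its call when any array but EtOH replicate 2 was left out, at a limma adjusted p of up to 0.165. UBC32, a ubiquitin-conjugating enzyme at the endoplasmic reticulum, was at 11.18, 11.24 and 11.69 under ABA and at 8.82, 9.04 and 8.95 under EtOH (response 2.43, limma adjusted p = 1.28e-06). It was the only called gene of 13 in its family, and the block raised that to 3. CRT1b, a calreticulin that folds glycoproteins, was at 10.97, 10.79 and 10.57 under ABA, against 7.95, 8.07 and 8.37 under EtOH (response 2.65, limma adjusted p = 1.49e-06). DER1, OS9 and ATERDJ3B, which remove or fold proteins of the endoplasmic reticulum, had responses of 1.28, 1.21 and 1.14. BETA-VPE, a vacuolar processing protease, was at 6.62, 6.20 and 6.74 under ABA and at 4.39, 3.84 and 4.37 under EtOH (response 2.32, limma adjusted p = 8.47e-06).

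MYBC1, a MYB-type transcription factor, was at 6.51, 7.46 and 6.48 under ABA, against 9.32, 9.17 and 8.96 under EtOH (response -2.34, limma adjusted p = 9.71e-05). Of 22 measured bZIP factors 1 rose and 4 fell, which is 22.7% called, against 16.2% of all probe sets. BZIP61 was at 5.32, 5.27 and 5.26 under ABA and at 7.08, 7.51 and 7.78 under EtOH (response -2.17), and bZIP52 had a response of -1.95. The rise was that of BZIP60, a factor of the endoplasmic reticulum stress response, at 0.43 with a limma adjusted p of 0.0498, and it was lost on leaving out any single array of the 6. Of 7 WRKY factors WRKY47 and WRKY22 fell by 1.46 and by 1.03 on the log2 scale. ZAP1 rose by 0.83, a call that was lost on leaving out any single array of the 6. YAB5, a factor of leaf polarity, had a response of -1.57 and GT2, a light-responsive trihelix factor, of -1.5. CIL was at 5.12, 6.09 and 6.49 under ABA, against 3.48, 3.46 and 3.41 under EtOH (response 2.45, limma adjusted p = 0.00164). Of 42 AGAMOUS-like factors 2 rose and none fell by limma, and 4 rose and 1 fell with the block. The 2 rises by limma were those of AT1G30260 (response 2.12) and AGL16 (response 0.88). AT1G30260 was counted in this family through a listed synonym alone, and its membership was not checked. AGL16 lost its call on leaving out ABA replicate 1 or 2 or EtOH replicate 2 or 3, at a limma adjusted p of up to 0.135.

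WES1, a GH3 enzyme that conjugates auxin, was at 7.50, 7.99 and 9.20 under ABA, against 6.47, 5.50 and 4.92 under EtOH (response 2.60, 1.48 to 3.72, limma adjusted p = 0.00176), while the auxin-responsive GH3.3 and IAA29 had responses of 0.47 and -0.38 and were not called. PSY1R, a receptor kinase for a sulphated peptide, was at 5.39, 5.91 and 5.27 under ABA and at 7.23, 7.4 and 7.49 under EtOH (response -1.85, limma adjusted p = 2.61e-05). EMS1, a receptor kinase known from anthers, had a response of -1.60. The treatments did not overlap for these 2 kinases. RALFL33, a secreted peptide of the RALF family, was at 11.14, 11.53 and 10.94 under ABA, against 12.40, 12.41 and 12.36 under EtOH (response -1.19, limma adjusted p = 0.000761). SPY and SEC, which add O-linked sugars to nuclear and cytosolic proteins, went opposite ways, with responses of -1.12 and 1.01 (limma adjusted p = 8.15e-06 and 0.00448). TET2, a tetraspanin of the plasma membrane, was at 7.94, 7.94 and 7.78 under ABA and at 5.70, 5.52 and 5.77 under EtOH (response 2.23, limma adjusted p = 1.41e-08).

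Genes of touch, wounding and early stress were not called in agb1 gpa1 guard cells. By limma 0 of 5 measured genes passed the adjusted threshold and 2 had an unadjusted p under 0.05, and with the pair as a block CML37, a calmodulin-like calcium sensor, did (limma adjusted p = 0.0257, against 0.154 without it). CML37 was at 9.21, 9.01 and 9.17 under ABA, against 9.24, 7.96 and 7.87 under EtOH, so EtOH replicate 1 lay among the ABA arrays. STZ, a zinc finger repressor, was at 12.59, 12.83 and 12.75 under ABA and at 12.92, 13.03 and 13.15 under EtOH. On the heat shock list, the 3 genes other than AT4G21870 lay between 11.85 and 12.91 on all 6 guard cell arrays, with responses between -0.26 and -0.16. The same 3 genes were at 4.54 to 6.12 in the EtOH-treated leaves of agb1 gpa1. The clock gene GI was at 8.99, 8.84 and 8.80 under ABA, against 8.69, 9.05 and 8.90 under EtOH.

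Organelle-encoded genes were not called in the values as deposited without the block, and nad9 was with each array centred on its median (response 0.44, limma adjusted p = 0.0397). Of 69 chloroplast-encoded genes 0 were called by limma and 1 had an unadjusted p under 0.05, with a median of -0.18. Of 11 mitochondrion-encoded genes 0 were called by limma and 1 had an unadjusted p under 0.05, with a median of 0.25. With the pair as a block petD, a subunit of the cytochrome b6f complex, was called at -0.56 (limma adjusted p = 0.0305, against 0.336), and nad9, a subunit of respiratory complex I, at 0.37 (0.0322, against 0.0762).

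The response of the double mutant was then set against those of agb1, gpa1 and WT guard cells, each measured on 6 arrays of its own. Called probe sets numbered 3571 in agb1 (15.7%, with 7.26% higher and 8.44% lower), 4564 in gpa1 (20.1%, with 8.67% higher and 11.4% lower) and 4585 in WT (20.2%, with 8.55% higher and 11.6% lower). Of the 1651 rises in agb1 gpa1, 1341 were also rises in agb1 (81.2% of the agb1 gpa1 list and 81.2% of the agb1 list), 1391 in gpa1 (84.3% and 70.6%) and 1343 in WT (81.3% and 69.1%). Of the 2044 falls, 1503 were falls in agb1 (73.5% and 78.3%), 1698 in gpa1 (83.1% and 65.5%) and 1654 in WT (80.9% and 62.6%). No probe set called in agb1 gpa1 was called in the opposite direction in any of these 3 genotypes. Across 22746 probe sets, which are not independent of each other and were read on arrays of the same type, responses in agb1 gpa1 correlated with those in agb1 at 0.950, in gpa1 at 0.936 and in WT at 0.937.

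**Figure D3:**
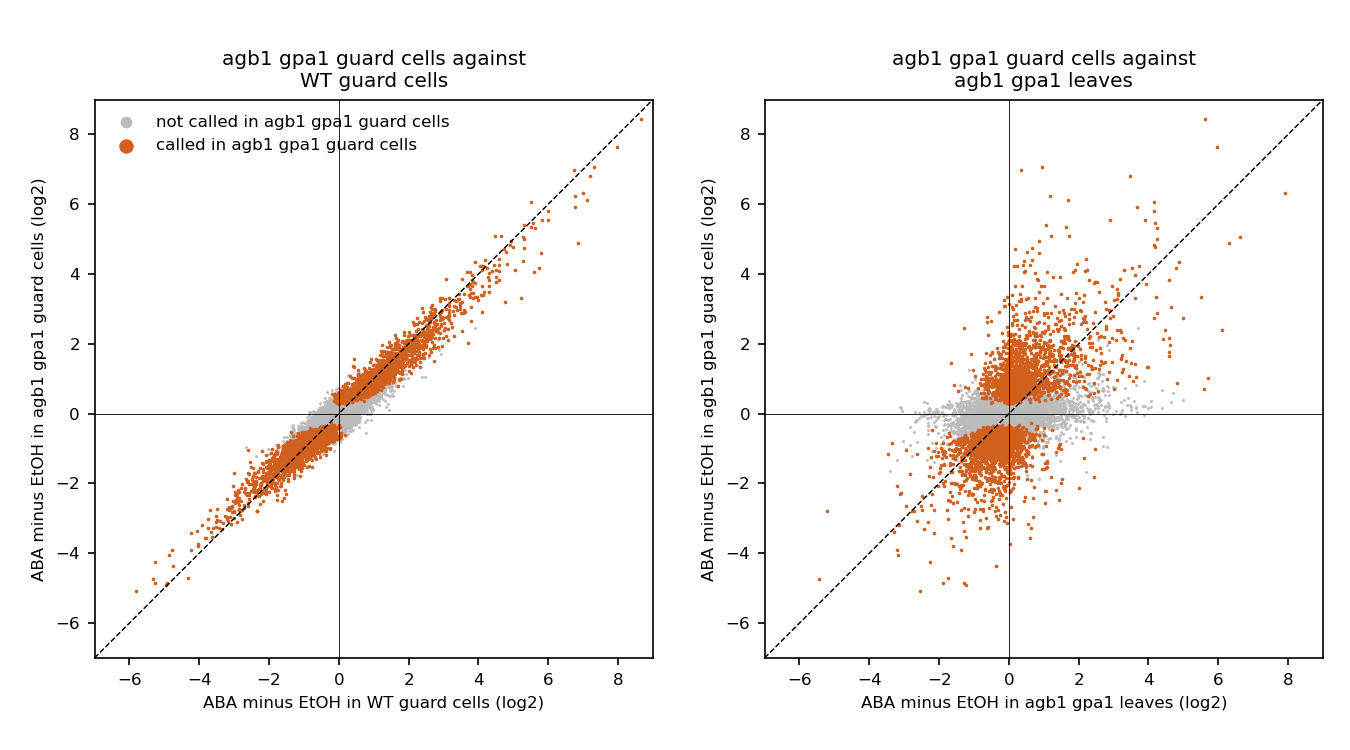
ABA response (log2, ABA minus EtOH) of 22746 probe sets in agb1 gpa1 guard cells (vertical axis) against WT guard cells (left) and agb1 gpa1 leaves (right), with the 3695 probe sets called in agb1 gpa1 guard cells in orange and the dashed line of equal response. The points follow the line against WT guard cells (correlation 0.937) and scatter against leaves (0.491).

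The difference of responses was tested directly, and 0 probe sets (0%) passed the adjusted threshold in limma for agb1 gpa1 minus agb1, minus gpa1 or minus WT, with a lowest adjusted p of 1. At an unadjusted p under 0.05, limma found 310 (1.36%), 507 (2.23%) and 476 (2.09%) in the same order. Non-additivity, the response of agb1 gpa1 minus those of agb1 and gpa1 plus that of WT, also gave 0 calls (0%), with 424 probe sets (1.86%) under an unadjusted 0.05. All 4 unadjusted shares lay below 0.05, the share expected if no response differed. With the replicate pair as a block all 4 differences still gave 0 calls. Probe sets under an unadjusted 0.05 in limma then numbered 524, 927, 912 and 802, for minus agb1, minus gpa1, minus WT and non-additivity. These counts too were below a share of 0.05 of all tested probe sets. The lowest limma adjusted p was then 0.317 for minus gpa1 and 0.995 for minus WT. Without the block, the median standard error of these differences was 0.254, and 0.36 for non-additivity. A difference of responses that is small against those errors was not detectable with these arrays, and larger ones can be missed too. In simulated data with the spread of the 24 guard cell arrays, a 2-fold difference from WT was called for 43 of 100 changed probe sets. A difference of 2 on the log2 scale was called for 90 of 100. The simulated arrays were independent of each other, while the guard cell samples are paired by replicate number. These 2 shares are thus no measure of the power of the real arrays. The absence of calls does not show that the genotypes respond alike. For the 24 genes with the largest responses, the difference from WT lay between -0.58 (AT1G23070) and 0.83 (AT5G02540), that from agb1 between -0.78 (AT3G15670) and 0.68 (AT5G02540), and that from gpa1 between -0.82 (AT1G49450) and 1.09 (AT2G25780). All these intervals, of about 1.17 to either side at the median, included 0. Among these 24 genes AT5G02540 came nearest to a difference from WT. It was at 8.73, 9.23 and 8.26 under ABA, against 12.23, 12.24 and 12.01 under EtOH in agb1 gpa1, a response of -3.42, and its response was -4.10 in agb1, -4.14 in gpa1 and -4.24 in WT. COR15A had a response of 3.20 in agb1 gpa1, 3.92 in agb1, 3.60 in gpa1 and 4.77 in WT, and COR15B of 1.82, 2.47, 2.5 and 2.86 in the same order. Neither difference was called. Outside the 24 genes some intervals did not include 0, as some of 22746 would with no difference. For AT4G15975 the difference from WT was 1.54 (0.83 to 2.26), and for CHIL it was -1.17 (-2.04 to -0.31). For EXLA2 the difference from gpa1 was -1.26 (-2.13 to -0.39). These differences were not called either.

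Probe sets chosen by the responses of agb1 and gpa1 give the average size of the response. The calls that chose them took their spread from all 24 guard cell arrays, those of agb1 gpa1 and WT included. At least 2-fold rises called in both agb1 and gpa1 numbered 895, and all 895 were higher under ABA in agb1 gpa1, 854 of them called. Their mean level was 8.48, 8.46 and 8.73 under ABA and 6.61, 6.61 and 6.70 under EtOH in agb1 gpa1, against 8.63, 8.76 and 8.58 under ABA and 6.69, 6.52 and 6.54 under EtOH in WT. Their median response was 1.61 in agb1 gpa1 and 1.72 in WT, and 604 of the 895 (67.5%) responded less in agb1 gpa1 than in WT. At least 2-fold falls in both single mutants numbered 676, and all 676 were lower under ABA in agb1 gpa1, 634 of them called. Their mean level was 6.72, 6.87 and 6.63 under ABA and 8.41, 8.30 and 8.34 under EtOH in agb1 gpa1, against 6.81, 6.54 and 6.48 under ABA and 8.42, 8.46 and 8.34 under EtOH in WT. Their median response was -1.43 in agb1 gpa1 and -1.57 in WT, and 494 of the 676 (73.1%) responded less in agb1 gpa1 than in WT. The array means of agb1 gpa1 and WT overlapped under both treatments in both sets. The probe sets share arrays, so these shares carry no test.

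Leaves of the same genotype responded in part through other genes. In a fit over all 48 arrays, 3299 probe sets were called in agb1 gpa1 guard cells (14.5%, with 6.92% higher and 7.59% lower) and 2920 in agb1 gpa1 leaves (12.8%, with 6.11% higher and 6.73% lower). Of the 1651 guard cell rises called over the 24 guard cell arrays, 514 were among the 1390 leaf rises called over the 48 arrays (31.1% of the guard cell list and 37.0% of the leaf list). Of the 2044 guard cell falls called over the 24 arrays, 486 were among the 1530 leaf falls called over the 48 (23.8% and 31.8%). The responses of guard cells and leaves correlated at 0.491 over 22746 probe sets. The difference between the responses was called for 1257 probe sets (5.53%), of which 612 were higher (2.69%) and 645 lower (2.84%) in guard cells.

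AT3G17520 had the largest difference of the named genes. It was at 10.50, 10 and 11.51 in ABA-treated guard cells and at 3.50, 3.51 and 3.81 in EtOH-treated guard cells, against 4.51, 3.63 and 4.88 in ABA-treated and 3.46, 3.35 and 3.38 in EtOH-treated leaves (difference of responses 6.12, limma adjusted p = 6.01e-08). AT3G15670 was at 4.05, 3.78 and 3.86 in ABA-treated and at 3.77, 3.61 and 3.76 in EtOH-treated leaves, so its leaf values lay within 3.61 to 4.05 while those of the treatments in guard cells lay far apart. AtLEA4-1 rose in leaves too, by 1.64, and by more in guard cells (limma adjusted p = 6.25e-05 for the difference). AT3G02480 rose in both, by 7.64 in guard cells and 5.97 in leaves, and the difference was not called (limma adjusted p = 0.119). MTP11, TET2 and CRT1b had responses of 3.31, 2.23 and 2.65 in guard cells, against 0.75, 0.02 and -0.52 in leaves, and all 3 differences were called (limma adjusted p = 3.43e-07, 3.33e-06 and 0.00264). FMA had a response of -2.23 in guard cells and -0.49 in leaves (limma adjusted p = 0.00459), with leaf values between 4.29 and 5.37, in the low part of the scale. EXPA4 and EXLA2 had responses of 4.05 and 3.65 in guard cells, against 0.44 and 0.37 in leaves (limma adjusted p = 0.00159 and 0.00309).

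Other genes responded more in leaves. EXPA16 was at 13.75, 13.71 and 14.12 in ABA-treated and at 12.99, 12.63 and 12.86 in EtOH-treated guard cells, against 10.42, 10.51 and 9.98 in ABA-treated and 4.54, 4.65 and 4.62 in EtOH-treated leaves. Its EtOH level was thus already high in guard cells. PUB19 had a response of 2.4 in guard cells, where EtOH values were 10.12 to 10.93, and of 6.11 in leaves (limma adjusted p = 1.55e-09 for the difference). UGT76E12 was at 4.19, 4.06 and 4.31 in ABA-treated and at 4.08, 3.45 and 3.99 in EtOH-treated guard cells, against 7.98, 8.94 and 9.81 in ABA-treated and 3.88, 4.92 and 4.01 in EtOH-treated leaves. The calcium sensors CML38 and CML23 had responses of -0.41 and -0.36 in guard cells, against 1.38 and 1.48 in leaves (limma adjusted p = 0.0126 and 0.00459). Guard cell arrays and leaf arrays also differ in how the samples were made, and the part of the isolation in these differences was not tested.

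**Figure D4:**
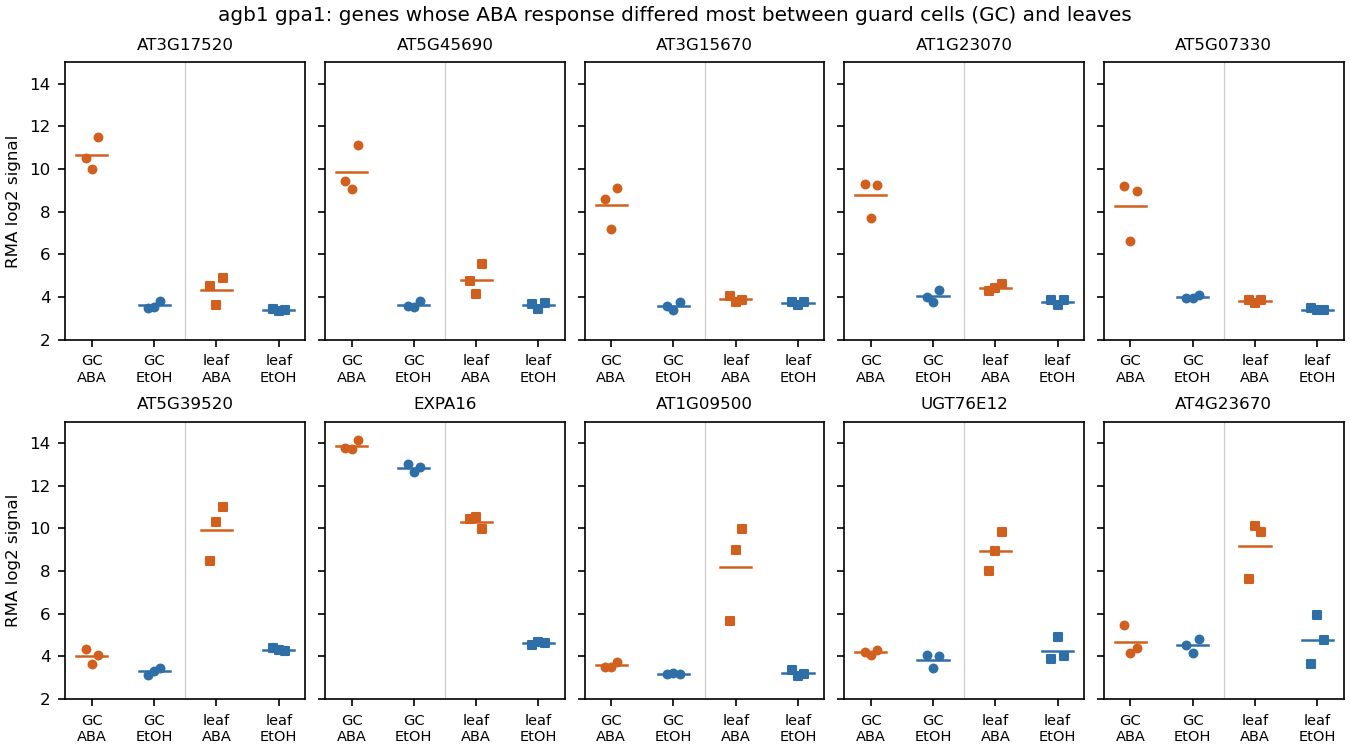
RMA log2 signal in agb1 gpa1 guard cells (GC, circles) and leaves (squares) under ABA and EtOH for the 5 genes with the highest (upper row) and the 5 with the lowest (lower row) difference of responses, points for arrays and lines for means. In the upper row the ABA-treated guard cells stand apart; in the lower row the ABA-treated leaves do, except for EXPA16, which was high in all guard cell arrays.

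A few genes were called in opposite directions in guard cells and leaves of agb1 gpa1, namely 14 named genes that rose in guard cells and fell in leaves and 19 that fell in guard cells and rose in leaves. CIL was at 5.12, 6.09 and 6.49 in ABA-treated and at 3.48, 3.46 and 3.41 in EtOH-treated guard cells, against 3.57, 3.49 and 3.60 in ABA-treated and 5.25, 4.68 and 4.59 in EtOH-treated leaves. AT1G75800 was at 10.32, 10.33 and 10.35 in ABA-treated and at 7.49, 7.58 and 7.61 in EtOH-treated guard cells, against 9.84, 9.47 and 9.64 in ABA-treated and 10.33, 10.18 and 10.30 in EtOH-treated leaves. The treatments did not overlap in either sample type for these genes. In the other direction, GRX480, a glutaredoxin of defence signalling, was at 10.11, 10.51 and 9.99 in ABA-treated and at 11.05, 10.85 and 10.79 in EtOH-treated guard cells, against 8.09, 7.44 and 7.19 in ABA-treated and 5.66, 5.77 and 4.98 in EtOH-treated leaves (difference of responses -2.80, limma adjusted p = 0.000581). BGLU16 had a response of -1.15 in guard cells and 0.95 in leaves (limma adjusted p = 2.10e-05). AT1G10585 had a response of -1.98 in guard cells and 1.5 in leaves (limma adjusted p = 1.23e-06).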

How the data were processed

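Biotin-labelled RNA was hybridised to 48 single-sample arrays. The deposited values are log2 signals per probe set, made by the authors with RMA in the affy package, per the submitters' processing notes, with versions and build not given in the sources used here. RMA subtracts background and aligns array distributions, so a shift of most transcripts at once would be lost. The values were used as deposited. Control probe sets (64 of 22810) were removed. One mean per group was fitted in limma 3.58.1 under R 4.3.3 over the 24 guard cell arrays (16 residual degrees of freedom), or all 48 arrays for guard cells against leaves, with p-values adjusted by Benjamini-Hochberg. Probe sets were named from the platform annotation where tied to 1 gene, 13286 of 13356 genes being found in the RefSeq gene table, and of several probe sets of a gene the brightest over 48 arrays was kept. The number of arrays limits the precision. The pipeline was tested on simulated data.

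Named were the 12 genes with the highest and the 12 with the lowest response among those called without overlap, the 5 highest and 5 lowest called for each difference, up to 6 measured members of each list and up to 4 called members of each family, plus the 142 named genes described in the text. Members and lists were chosen with earlier results of these data known. Deviations of same-numbered agb1 gpa1 guard cell arrays correlated at 0.318, 0.259 and 0.204, and in every genotype of guard cells each array correlated best with its own number, so the numbers pair the samples. Alternatives were only the 6 arrays, replicate blocks, median centring, quantile normalization, a filter on dim probe sets (mean of at least 5), a trended robust variance prior, a 2-fold minimum and leaving out each array. Promoter motifs were not analysed here.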

Additional observations from a re-analysis of the deposited data

Results flagged for a closer look

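The response to ABA differed between guard cells and leaves of agb1 gpa1 for 1257 probe sets, by limma's test of the difference itself. The 5 named genes that responded most in favour of guard cells were AT3G17520 (difference of responses 6.12), AT5G45690 (5.04), AT3G15670 (4.52), AT1G23070 (4.07) and AT5G07330 (3.86). Of these, AT5G07330 was at 9.20, 6.61 and 8.96 in ABA-treated and at 3.94, 3.95 and 4.09 in EtOH-treated guard cells, against 3.87, 3.72 and 3.87 in ABA-treated and 3.47, 3.37 and 3.40 in EtOH-treated leaves. All 5 had leaf means under ABA below 5 on the log2 scale.

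The 5 that responded most in favour of leaves were AT5G39520 (-4.88), EXPA16 (-4.67), AT1G09500 (-4.60), UGT76E12 (-4.30) and AT4G23670 (-4.23, limma adjusted p = 0.0145). AT5G39520 was at 4.32, 3.64 and 4.08 in ABA-treated and at 3.14, 3.3 and 3.44 in EtOH-treated guard cells, against 8.46, 10.30 and 10.99 in ABA-treated and 4.38, 4.30 and 4.26 in EtOH-treated leaves. AT1G09500 was at 5.63, 8.98 and 9.95 in ABA-treated leaves, with replicate 1 the lowest, and at 3.35, 3.08 and 3.17 in EtOH-treated leaves. AT4G23670 was at 7.63, 10.09 and 9.82 in ABA-treated and at 3.66, 5.93 and 4.76 in EtOH-treated leaves, and its response in guard cells was 0.16.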

How the results depend on the processing

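The count of 3695 responding probe sets was 1682 when a change of at least 2-fold was also required, 3905 over only the 6 arrays, 4653 there with a replicate block and 5513 with a replicate block over 12 pairs of guard cell arrays. It was 3492 with arrays centred on their medians (53.6% of them higher, against 44.7%), 3478 after quantile normalization, 3514 without dim probe sets, 3464 with a trended robust prior and 2617 to 3448 without 1 array. The 4 differences from other genotypes gave 0 calls by limma under every alternative run, and with the replicate block 524 (minus agb1), 927 (minus gpa1), 912 (minus WT) and 802 (non-additivity) probe sets had an unadjusted p under 0.05, with lowest adjusted p-values of 1, 0.317, 0.995 and 1. Those unadjusted counts were each below the share of 0.05 expected if no response differed. The guard cell minus leaf difference rose to 2133 calls with a replicate block over 24 pairs, was 976 to 1114 without 1 array and 1139 to 1265 under the other alternatives. In leaves of agb1 gpa1 same-numbered arrays correlated at 0.551, -0.00098 and 0.102, so there the numbers are no pairs.

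Calls of single genes were followed under the alternatives for 521 genes, a part of the 13356 named genes. Of these, 190 were called. Without at least 1 array 44 of the 190 lost the call, and 6 lost it without each of the 6 in turn. Under another alternative 13 lost it, and no called value changed direction. Of the 331 that were not called, 21 were called with the replicate block. The block took no call away from the 521 genes. Outside the 331, it also called petD and members of the AGAMOUS-like and UDP-glycosyltransferase families. Depth is not defined for these arrays, and the lowest value over all arrays was 2.42, so genes with both groups near that floor cannot be read as unchanged. The promoter motif description was not run.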
